A study of Mus musculus with 39 samples.

Results

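Among single crypt cells of irradiated mice, 10 genes of the Wnt pathway were examined: the R-spondin receptors Lgr5 and Lgr4, the ubiquitin ligases Rnf43 and Znrf3, the feedback inhibitor Axin2, the transcription factors Ascl2 and Sox9, the Eph receptors Ephb2 and Ephb3, and Ctnnb1, which encodes beta-catenin. They were taken by name, and all 10 were found among the 25219 genes with values. The 39 cells were sorted as tdTomato+ Sca1- crypt epithelial cells from the mouse line Lgr5-EGFP-Ires-CreERT2:Rosa-lsl-tdTomato. Tamoxifen was given 24 h before total body irradiation with 10 Gy, and the cells were taken 48 h after it. All cells belong to this single group, so that there were no unirradiated, unlabeled or Sca1+ cells to compare with. The labels tie no cell to a mouse. Together the cells count as 1 biological sample, so spreads are between cells and there are no p-values.

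In these mice the Cre recombinase is made from the Lgr5 locus, so that tamoxifen marks cells with an active Lgr5 gene, and the red mark then passes to all their progeny. The mark records Lgr5 at the time of tamoxifen and not at the time of the sort. The inserted cassette takes the place of the start of the Lgr5 coding sequence on its allele, and whether the mice carried 1 or 2 such alleles was not given in the sources used here. How reads from that allele were assigned was not tested.

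Wnt signals stabilize beta-catenin, which then works with TCF/LEF factors on target genes, and in the crypt this keeps intestinal stem cells (ISCs) dividing. R-spondins bound to Lgr4 or Lgr5 hold back Rnf43 and Znrf3, a pair of ligases that remove Frizzled receptors from the cell surface. Lgr5, Ascl2, Axin2, Rnf43, Znrf3, Sox9, Ephb2 and Ephb3 are all known as targets of the pathway, whereas Lgr4 and Ctnnb1 are broadly expressed parts of it.

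Expression was given as FPKM (fragments per kilobase of a transcript, corrected for library size), which corrects for transcript length, and 1 FPKM was set as the limit of detection in a cell. Depth was 398418 to 3903971 estimated counts on genes per cell (median 3089188), with 2287 to 5779 genes detected (median 4609). At the median over cells of the total by which FPKM divides, 1 FPKM corresponded to 17.1 counts of Lgr5 and 5.85 counts of the short Ascl2 transcript. In cell 43 it stood for fewer counts than in any other cell, 3.73 for Lgr5 and 1.28 for Ascl2. Epcam, the surface protein of epithelial cells, was detected in 39 of 39 cells, and all 13 genes of a list of blood, vessel, connective tissue, muscle, liver and glial markers were below 1 FPKM in every cell. Ly6a, which encodes the Sca1 protein of the sort, was at 1 FPKM or more in 4 cells, up to 509 FPKM in cell 34. Genes of differentiated cells were abundant in some cells. The summed FPKM of the Paneth, goblet, enterocyte or tuft list reached 2000 in 11 cells, including 4 of the 8 cells with Lgr5. Cells 9 and 79 had the fewest genes (2287 and 2335), and both were among the cells with Lgr5.

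Detection ranged from nearly all cells to a few. Ctnnb1, Lgr4 and Sox9 were each detected in 38 of 39 cells (97.4%, exact Clopper-Pearson 95% interval 86.5 to 99.9, counting error only), and Znrf3 in 31 cells (79.5%, 63.5 to 90.7). Axin2 was detected in 22 cells (56.4%, 39.6 to 72.2), Ascl2 in 20 (51.3%, 34.8 to 67.6), Ephb2 in 19 (48.7%, 32.4 to 65.2) and Rnf43 in 14 (35.9%, 21.2 to 52.8). Lgr5 and Ephb3 were each detected in 8 cells (20.5%, 9.30 to 36.5). In all, 6 of the 10 genes were detected in at least 50% of cells, against 14.5% of all 25219 genes and 27.2% of the 13459 genes above 0 in any cell. This number was 9 at any value above 0 and 4 at 5 FPKM. Shares of single genes moved with the limit, most of all that of Lgr5, which was 10.3% at 5 FPKM and 79.5% at any value above 0. At 5 FPKM, Axin2 was in 35.9% of cells, Ephb2 in 20.5% and Rnf43 in 15.4%, and at any value above 0 they were in 84.6%, 61.5% and 53.8%.

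**Figure D1:**
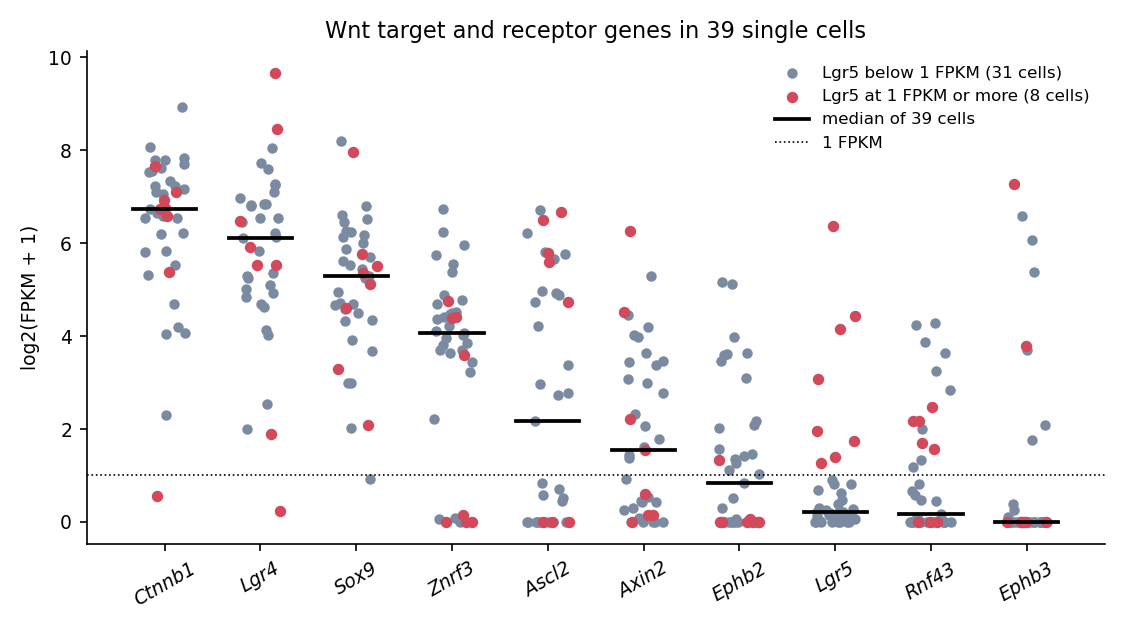
Level of each gene in each of the 39 cells, on the vertical axis as log2(FPKM + 1); each point is a cell, red where Lgr5 was at 1 FPKM or more, and each bar is the median over all cells. Ctnnb1, Lgr4 and Sox9 lay above the 1 FPKM line in all but 1 cell each, whereas the medians of Ephb2, Lgr5, Rnf43 and Ephb3 lay below it.

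Ordered by median, the levels were 106 FPKM for Ctnnb1, 68.3 FPKM for Lgr4, 38.5 FPKM for Sox9, 15.8 FPKM for Znrf3, 3.50 FPKM for Ascl2, 1.94 FPKM for Axin2, 0.791 FPKM for Ephb2, 0.156 FPKM for Lgr5, 0.117 FPKM for Rnf43 and 0 FPKM for Ephb3. The order varied from cell to cell. For each of the 9 neighbouring pairs, the mean paired difference in log2(FPKM + 1) was smaller than the SD of that difference over single cells. The widest was 1.52, with an SD of 2.08, between Sox9 and Znrf3, where Sox9 was the higher in 31 cells and Znrf3 in 8. Ctnnb1 was above Lgr4 in 26 cells and below it in 13, and Lgr4 was above Sox9 in 27 cells and below it in 12. Lgr5 was above Rnf43 in 17 cells and below it in 15. Its mean log2(FPKM + 1) was the lower of the 2, at 0.807 against 1.02 for Rnf43.

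Lgr5 (Entrez Gene 14160; mm10, chromosome 10, 115450314 to 115587780, minus strand) is the receptor that defines ISCs in the normal crypt. Its lowest value was 0 FPKM, its median 0.156 FPKM and its highest 82.0 FPKM. Cell 93, with 82.0 FPKM from 1677 estimated counts, was followed by cell 92 at 20.7 FPKM, cell 9 at 16.9 FPKM and cell 18 at 7.40 FPKM. The other detected values were 2.88 FPKM in cell 52, 2.37 FPKM in cell 60, 1.63 FPKM in cell 79 and 1.41 FPKM in cell 48. Lgr5 RNA was thus concentrated in very few cells: cell 93 alone held 58.0% of the Lgr5 FPKM summed over all cells, and the 4 highest cells held 89.9%. The mean over cells, 3.62 FPKM, was 1.56 FPKM without cell 93. The Paneth list summed to 2010 FPKM in cell 93, 2085 FPKM in cell 92 and 4303 FPKM in cell 9. Its median over all cells was 381 FPKM, and cell 18 had 86.5 FPKM. Cells 56 and 63 had 12817 and 9226 FPKM of this list with Lgr5 below 1 FPKM. The part of this in the Lgr5 levels was not tested.

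Below the detection limit, Lgr5 was at 0 in 8 cells and between 0 and 1 FPKM in 23. In 15 of these 23 cells the value came from 3 counts or fewer. The count was not a whole number in 14 of the 23, within a tolerance of 0.01, and in 20 of the 31 cells with any Lgr5. Estimated counts can be fractions where a read matches several places. Among the other 9 genes only Ascl2 and Ctnnb1 had them, in 1 cell each. Counted at any value above 0, Lgr5 would be present in 31 cells (79.5%, 63.5 to 90.7), so the share of Lgr5 cells depended on how these small values were read. The gene A930009A15Rik, which overlaps Lgr5 on the other strand, was above 0 in 1 cell, cell 86, where Lgr5 had 0.14 FPKM.

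Lgr4 (Entrez Gene 107515; chromosome 2, 109917647 to 110014257, plus strand) binds the same R-spondins and is expressed along the whole crypt. Its level was 0.171 FPKM in the lowest cell, cell 79, 68.3 FPKM at the median and 808 FPKM in the highest, cell 48. It was at 10 FPKM or more in 35 cells. Within a cell, Lgr4 was higher than Lgr5 in 36 of 39 cells, and Lgr5 was the higher of the pair in cells 18, 79 and 93. Cell 48, with the highest Lgr4, had the lowest Lgr5 among the 8 cells in which Lgr5 was detected.

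Znrf3 and Rnf43 do the same work, but they differed in how many cells contained them. Znrf3 (Entrez Gene 407821; chromosome 11, 5276329 to 5444847, minus strand) ranged from 0 to 106 FPKM, with the highest value in cell 94. Its values fell into separate ranges, with 8 cells below 1 FPKM and the other 31 at 3.67 FPKM or more. Rnf43 (Entrez Gene 207742; chromosome 11, 87663087 to 87735539, plus strand) ranged from 0 to 18.5 FPKM, and only cells 14, 22, 34 and 71 reached 10 FPKM. Znrf3 was the higher of the pair in 33 cells and Rnf43 in 5, with both at 0 in the remaining cell. Both were detected in 11 cells, Znrf3 alone in 20, Rnf43 alone in 3 and neither in 5. Rnf43 shares its locus with the non-coding gene 1110028F11Rik on the same strand, which was detected in 10 cells, 5 of them with Rnf43, so that Rnf43 values are uncertain to that extent.

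Axin2 (Entrez Gene 12006; chromosome 11, 108920349 to 108950781, plus strand) is a scaffold of the complex that destroys beta-catenin and is widely used as a readout of the pathway. It ranged from 0 to 76.1 FPKM with a median of 1.94 FPKM. The highest values were 76.1 FPKM in cell 93, 38.4 FPKM in cell 63 and 22.01 FPKM in cell 92. Cells 93 and 92 had the most Lgr5, but cells 9 and 18, the next by Lgr5, had Axin2 at 0 and 0.11 FPKM. Cell 63 had 0.11 FPKM of Lgr5, 33578 FPKM summed over the goblet list, the most of any cell, and 9226 FPKM over the Paneth list. The Paneth list summed to 2010 FPKM in cell 93, 2085 FPKM in cell 92 and 2192 FPKM in cell 86, the next by Axin2 (20.9 FPKM). Its median over cells was 381 FPKM. Cells 56 and 9, at 12817 and 4303 FPKM of this list, had Axin2 at 0.20 and 0 FPKM. The part of these lists in the Axin2 levels was not tested. A value between 0 and 1 FPKM was found in 11 cells.

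Ascl2 (Entrez Gene 17173; chromosome 7, 142966822 to 142969264, minus strand) is a transcription factor of ISCs that acts with Wnt signals on stem cell genes. It was either clearly present or nearly absent. The lowest detected value was 3.50 FPKM, 19 of the 20 cells with Ascl2 were at 5 FPKM or more, and the other 19 cells lay below 1 FPKM. The highest values were 105 FPKM in cell 76, 102 FPKM in cell 93 and 90.1 FPKM in cell 48. In cell 76 Lgr5 was at 0, whereas cell 93 had the most Lgr5 of all. Of the 4 cells with at least 5 FPKM of Lgr5, 2 had Ascl2: cell 93 at 102 FPKM and cell 18 at 47.0 FPKM, with 0 FPKM in cells 92 and 9.

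Sox9 (Entrez Gene 20682; chromosome 11, 112782210 to 112787757, plus strand), a transcription factor of crypt base and secretory cells, was present in every cell at some level, from 0.908 FPKM in cell 2 to 293 FPKM in cell 96. Its median was 38.5 FPKM. Cell 96 also had the highest summed tuft list, 5167 FPKM, and tuft cells are known to contain Sox9; the part of this in the value was not tested. The next highest cell was cell 48 at 247 FPKM. Ctnnb1 (Entrez Gene 12387; chromosome 9, 120933400 to 120960507, plus strand) was the most abundant of the 10 genes, with a median of 106 FPKM. It ranged from 0.463 FPKM in cell 9, which had the fewest estimated counts on genes, to 491 FPKM in cell 94. All 3 of Ctnnb1, Lgr4 and Sox9 were detected together in 36 cells.

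Ephb2 and Ephb3 encode receptors that position cells along the crypt. Ephb2 (Entrez Gene 13844; chromosome 4, 136653610 to 136836011, minus strand) ranged from 0 to 35.1 FPKM, with cells 63 and 72 (33.7 FPKM) well above the next, cell 17 at 14.7 FPKM. Ephb3 (Entrez Gene 13845; chromosome 16, 21204795 to 21223304, plus strand) was absent from most cells and abundant in a few: 153 FPKM in cell 92, 95.5 FPKM in cell 14, 65.7 FPKM in cell 16 and 40.5 FPKM in cell 54. Its values were 12.9 FPKM in cell 93, 12.1 FPKM in cell 4, 3.28 FPKM in cell 36 and 2.40 FPKM in cell 51. Within a cell, Ephb2 was the higher in 20 cells and Ephb3 in 8, with equal values in 11. The means went the other way, at 4.05 FPKM for Ephb2 and 9.90 FPKM for Ephb3. The 2 receptors rarely shared a cell: both were detected in 3 cells, Ephb2 alone in 16, Ephb3 alone in 5 and neither in 15. With so few Ephb3 cells, this overlap was not read as a relation between them.

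The level of each gene when Lgr5 itself was low was then examined in the 31 cells with Lgr5 below 1 FPKM. Most of the 9 other genes were found there too. Lgr4 and Ctnnb1 were detected in all 31 cells (100%, 88.8 to 100), Sox9 in 30 (96.8%, 83.3 to 99.9) and Znrf3 in 27 (87.1%, 70.2 to 96.4). Axin2 and Ephb2 were each detected in 18 cells (58.1%, 39.1 to 75.5), Ascl2 in 15 (48.4%, 30.2 to 66.9), Rnf43 in 9 (29.03%, 14.2 to 48.0) and Ephb3 in 6 (19.4%, 7.45 to 37.5). A cell with low Lgr5 had between 3 and 9 of the other 9 genes, with a median of 6, and 25 of the 31 had at least 5. Over all 25219 genes, these 31 cells had a median of 4614 detected. The 8 cells with Lgr5 had 2, 2, 5, 6, 6, 7, 7 and 8 of the other 9 genes, so the count was not particular to low Lgr5.

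**Figure D2:**
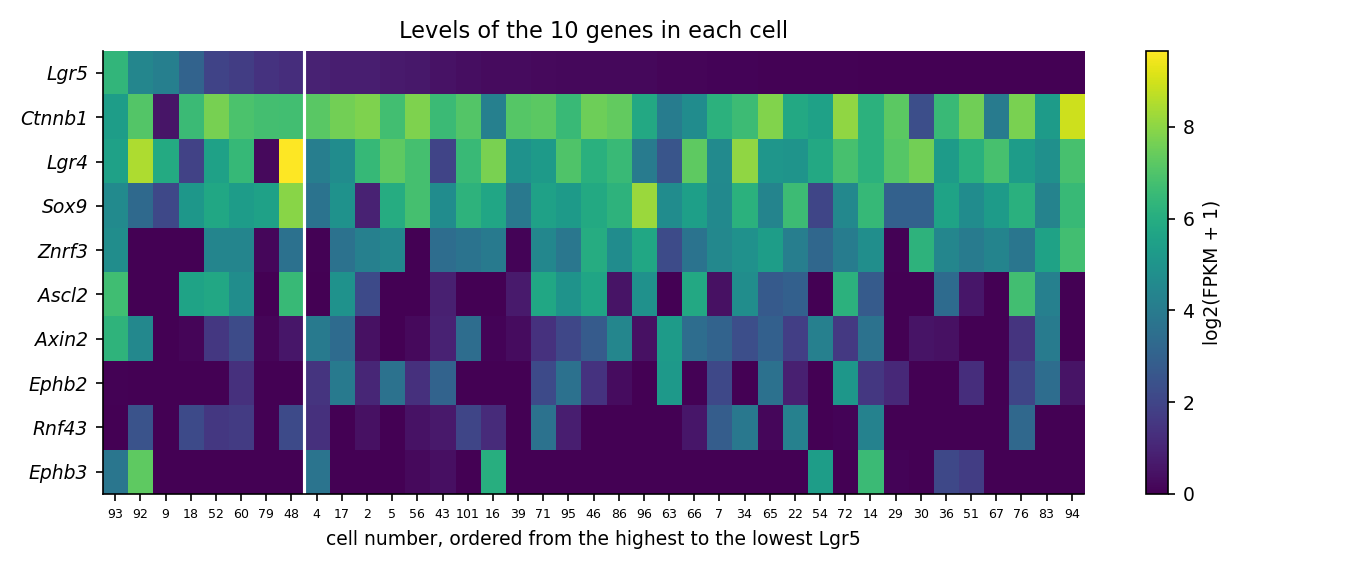
Level of the 10 genes (rows, log2(FPKM + 1) by colour) in each of the 39 cells (columns, by cell number), ordered from the highest to the lowest Lgr5; the white line separates the 8 cells with Lgr5 at 1 FPKM or more on the left from the 31 below it on the right. The rows of Ctnnb1, Lgr4 and Sox9 are bright on both sides of the line, and Ascl2 and Axin2 are patchy on both sides.

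Ascl2 or Axin2 was detected in 21 of the 31 cells with low Lgr5, both of them in 12, and Ascl2, Axin2 and Rnf43 all together in 5. None of these 3 target genes was detected in 9 cells. Cell 14 had all 9 other genes with Lgr5 at 0.02 FPKM, from 0.50 counts. Cell 76 had 105 FPKM of Ascl2 and 8.51 FPKM of Rnf43 with no Lgr5 count. At the other end, cell 39 had 3 of the 9 genes, with 3821 genes detected in all.

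In the 8 cells with Lgr5, Sox9 was detected in 8, Lgr4 and Ctnnb1 in 7, Ascl2 and Rnf43 in 5, Axin2 and Znrf3 in 4, Ephb3 in 2 and Ephb2 in 1. Znrf3 was at 0 in cells 92, 9 and 18, which came next after cell 93 in Lgr5. Rnf43 was at 0 in cell 93 and at 4.53 FPKM in cell 92. These counts come from cells of a single sample, 2 of which had few genes, and no difference between cells with and without Lgr5 was tested. The median number of genes detected was 4332.5 in the cells with Lgr5 and 4614 in the others.

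The number of the 10 genes in a cell moved with how much was detected in that cell at all. The Spearman correlation between the number of these genes and the number of all genes detected was 0.550 over the 39 cells. The 3 cells with only 3 of the 10 genes had 2287 to 3821 genes, and the 2 cells with 9 of the 10 had 4852 and 5502. The part of detection in the absence of Ascl2, Axin2, Rnf43 or Ephb2 from a given cell was not tested. Each of these 4 genes correlated with the number of genes detected, at 0.46 for Ascl2, 0.39 for Ephb2, 0.38 for Rnf43 and 0.33 for Axin2.

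**Figure D3:**
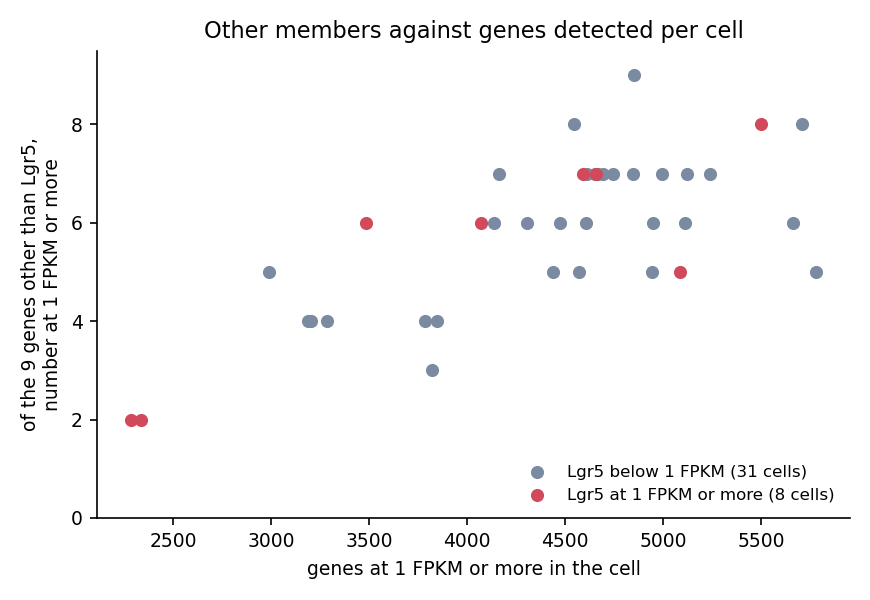
Number of the 9 genes other than Lgr5 at 1 FPKM or more (vertical axis) against the number of all genes at 1 FPKM or more (horizontal axis), with 1 point per cell and the 8 cells with Lgr5 in red. Cells 9 and 79, at the left with 2287 and 2335 genes, contained 2 of the 9 genes each, and cells with and without Lgr5 overlapped in the rest of the range.

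Agreement between the genes was examined by Spearman correlation of FPKM over the 39 cells, which share a sort, a preparation and differences in depth. Genes were read only if detected in at least 13 cells, which held for 5530 genes and 8 of the 10. Lgr5 and Ephb3 were too sparse. The 28 pairs among the 8 genes had a median correlation of 0.112 and ranged from -0.21 (Lgr4 and Ephb2) to 0.31 (Ascl2 and Rnf43). The median between these 8 genes and all genes in use was 0.0688. A correlation of at least 0.3 was reached by 2 of the 28 pairs (7.14%), against 8.48% of all pairings of the 8 genes with genes in use. These were Ascl2 with Rnf43 and Ephb2 with Ctnnb1, which fell to 0.16 and 0.24 once the number of genes per cell was taken out. The share of the 28 pairs was 0% without cells under 2500 genes, against 5.92% of all such pairings. Without the 11 cells rich in Paneth, goblet, enterocyte or tuft RNA it was 21.4%, against 9.02%.

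**Figure D4:**
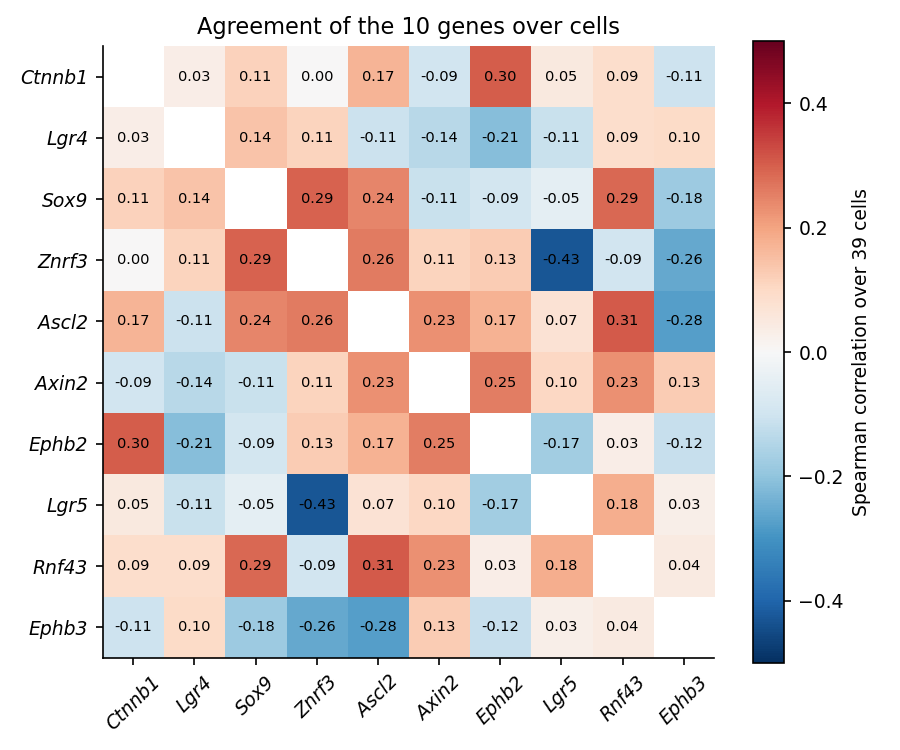
Spearman correlation over 39 cells for each pair of the 10 genes, ordered by median level, with red for positive and blue for negative values and the coefficient in each square. Most squares are pale, and the darkest is that of Lgr5 and Znrf3 at -0.43, which rests on a gene detected in 8 cells and was not read further.

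Gene by gene, Ascl2 reached 0.3 with 1 of the other 7 genes, where 13.7% of 5529 genes did so. Ephb2 did so with 1 (background 12.3%), Rnf43 with 1 (8.77%) and Ctnnb1 with 1 (6.38%). Axin2 (11.2%), Znrf3 (6.82%), Lgr4 (5.32%) and Sox9 (3.36%) did so with none. With 0 or 1 of 7 genes each, these counts were near the background and are not a result about the 8 genes. After the number of genes per cell was taken out, the median over the 28 pairs was 0.0752, against 0.0200 between the 8 genes and all genes in use. Within the 31 cells with low Lgr5 these medians were 0.0675 and 0.0336. Axin2 and Ascl2, the best known readouts, correlated at 0.23, and at 0.0958 with the number of genes taken out.

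Sharing of cells was also counted by detection, among the 5 of the 10 genes found in 13 to 37 cells (Ascl2, Axin2, Rnf43, Znrf3 and Ephb2). In 8 of their 10 pairs the second gene was found more often in cells with the first than in cells without it, and 79.2% of all pairings of the 5 with the other genes of that range went the same way. The median difference between the shares with and without the other gene was 21.9 percentage points over these pairs, read in both directions, and 12.1 points between the 5 genes and all genes of that range. The widest was that of Ascl2 in cells with and without Znrf3, at 48.8 points, which was 31.8 points for Znrf3 in cells with and without Ascl2. Of the 20 cells with Ascl2, 15 had Axin2 (75%), and of the 19 without it, 7 did (36.8%). Cells with Ascl2 also had more genes detected, with a median of 4795 against 4138, and the part of this in the overlap was not tested. Of the 22 cells with Axin2, 11 had Rnf43 (50%), against 3 of the 17 without it (17.6%), with medians of 4682 and 3846 genes. The pairs that went the other way were Rnf43 with Znrf3 (78.6% of cells with Rnf43 and 80% of those without) and Rnf43 with Ephb2 (42.9% and 52%).

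The 8 genes were also set against 4 single genes, the ISC markers Olfm4 and Smoc2, Cdca7, and Mki67, which marks dividing cells. These 4 were picked from longer marker lists without a set rule, and the other genes of those lists were not examined in this way. The number of genes per cell was not taken out here. The 32 coefficients ran from -0.32 to 0.44 with a median of 0.119, and 11 were below 0. The 5 at 0.3 or more were Ascl2 with Olfm4 (0.44) and Smoc2 (0.34), Ephb2 with Mki67 (0.43), Znrf3 with Smoc2 (0.40) and Axin2 with Cdca7 (0.40). These 5 are 15.6% of the 32, against 8.48% of all pairings of the 8 genes with genes in use, 13.7% for Ascl2 and 12.3% for Ephb2. Lgr4 was at -0.32 with Olfm4 and at -0.27 with Mki67, and Ephb2 at -0.03 with Smoc2. The 3 genes closest to each of the 8 over the 39 cells reached 0.51 to 0.69 and included none of the 10. For Lgr4 these were Rps3a1 (0.65), S100a10 (0.64) and Rps27l (0.60), for Ascl2 Mphosph10 (0.59), Sart1 (0.58) and Ubqln1 (0.58), and for Axin2 Rcc1 (0.64), Bfar (0.61) and Golm1 (0.60). For Rnf43 they were Dsn1 (0.62), Mrpl16 (0.62) and Snrnp48 (0.61), and for Znrf3 Tpp1 (0.65), Arpc2 (0.61) and Becn1 (0.56). For Sox9 they were Mettl23 (0.57), Gm14288 (0.54) and Hipk3 (0.51), for Ephb2 Mta2 (0.69), Eif3b (0.64) and Nabp2 (0.59), and for Ctnnb1 Rcbtb1 (0.56), Taf1d (0.55) and Sfpq (0.52). As the highest of 5529 values each, such coefficients are a description only.

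The rest of the pathway was measured through 6 lists. Of 23 Wnt and R-spondin genes, 21 were below 1 FPKM in every cell, as were 50.7% of all genes, and the 4 R-spondins among them were at 0. Wnt3, which Paneth cells supply to ISCs, was detected in 4 cells, up to 78.3 FPKM in cell 22, and Wnt4 in 6 cells, up to 15.1 FPKM in cell 79. Wnt1 had no cell at 1 FPKM. None of 13 Frizzled, LRP and related receptors was found in at least 50% of cells, against 14.5% of all genes and 27.2% of those above 0. Fzd5 was detected in 12 cells, Fzd7 in 10 and the co-receptor Lrp6 in 8, so that the co-receptors of Wnt were seen in fewer cells than Lgr4 or Znrf3.

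**Figure D5:**
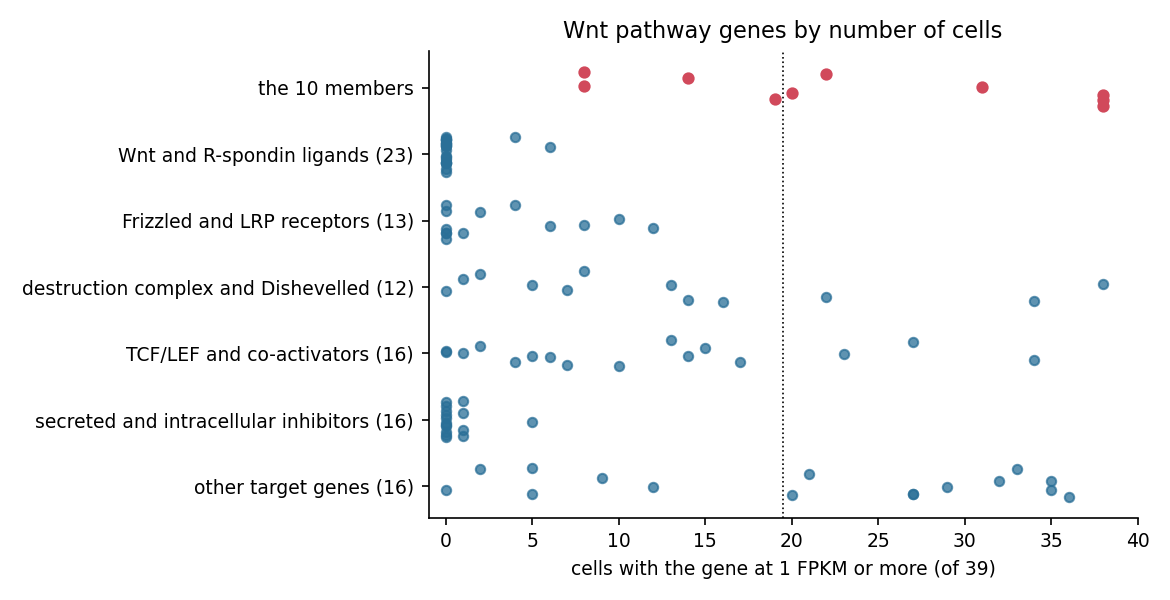
Number of the 39 cells in which each gene was at 1 FPKM or more, for the 10 genes (red) and for 6 other lists of the pathway (blue; number of genes in brackets), with 1 point per gene and a dotted line at 50% of cells. The ligands and the inhibitors lie at the left edge, and 10 of the 16 other target genes lie to the right of the line.

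Inside the cell, 3 of 12 genes of the destruction complex and the Dishevelled proteins were detected in at least 50% of cells, a share near that of all genes above 0 (27.2%). These were the kinase genes Gsk3b (38 cells, median 51.9 FPKM) and Csnk1a1 (34 cells, 34.65 FPKM) and the Dishevelled gene Dvl3 (22 cells, 2.29 FPKM). Apc was detected in 16 cells and Axin1, the constitutive relative of Axin2, in 14. Of 16 TCF/LEF factors and their partners, 3 were in at least 50% of cells, also near this background: Tcf7l2, the main TCF of the intestine (34 cells, median 15.5 FPKM), and the co-repressors Ctbp2 (27 cells) and Ctbp1 (23 cells). At any value above 0, 6 of the 16 were in at least 50% of cells, and at 5 FPKM 1 was. Lef1 was detected in 1 cell and Tcf7 in 5.

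Of 16 secreted and intracellular inhibitors, none was in at least 50% of cells and 11 were in no cell at 1 FPKM, against 50.7% of all genes. Tnfrsf19 was detected in 5 cells and Nkd1 and Notum, both feedback targets of Wnt, in 1 cell each (cell 96 at 50.9 FPKM and cell 16 at 45.2 FPKM). Among 16 other target genes 10 were in at least 50% of cells (7 at 5 FPKM), against 27.2% of all genes above 0 and 14.5% of all genes. By median level, the first were Id2 (33 cells, median 208 FPKM), Id3 (32 cells, 120 FPKM) and Cd44 (35 cells, 54.9 FPKM). Birc5 was in the most cells, 36, Ccnd1 was detected in 35 and Myc in 29, whereas Sp5, a direct target, was detected in 5. Many of these genes also answer to other signals.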

How the data were processed

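Single cells were captured on a microfluidic chip, and full-length cDNA libraries (SMARTer, Nextera XT) without molecular identifiers were sequenced. For each gene and cell, the deposited values are an FPKM and an estimated count, which the authors did not normalize. The submitters' processing notes name mm10/GRCm38, bcl2fastq 1.8.4 and TopHat2 2.0.14; the counting tool and annotation release were not given in the sources used here. FPKM was used as deposited and the estimated counts for depth and, rounded, for thinning to 600000 reads. Of the deposited counts above 0, 17.4% were not whole numbers. FPKM divides by a total of which 33.4% to 95.2% per cell lay on genes, which can shift values between cells. PCR copies and lost transcripts add error that counting intervals do not cover. No 2 cells had identical values. Doublets were not called, since capture sites had been inspected.

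Named genes were the 10 members, the 3 genes of each pathway list with the highest median (ties by the mean) and others named for a role, and the 3 nearest genes of each member in at least 13 cells. The members and lists were chosen with earlier results of these data known. No count model was fitted, because cells are not replicates. The correlation step was tested on simulated data. The groups of cells that the study formed are not in the labels and were not used here. Alternatives were other detection limits, thinning, rescaling, other correlation measures and cells left out. Scripts ran under Python 3.11.15 with pandas 2.3.3, numpy 2.4.6, matplotlib 3.10.9 and scipy 1.17.1.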

Additional observations from a re-analysis of the deposited data

How the results depend on the processing

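No paired analysis was possible because all 39 cells belong to 1 group. The share of cells with Lgr5, 20.5% at 1 FPKM, was 79.5% at any value above 0 and stayed within its interval at 5 FPKM (10.3%), when 3 reads were the limit in the 38 cells that could be thinned to 600000 (28.9%), and without the 2 cells under 2500 genes (16.2%). It was 14.3% without the 11 cells in which the summed Paneth, goblet, enterocyte or tuft list reached 2000 FPKM, an alternative chosen after seeing the data. The median of 6 other genes in cells with low Lgr5 ran from 5 to 7 over the alternatives. The median correlation over the 45 pairs, 0.0724, ran from 0.00766 to 0.110 over the alternatives, and that over the 28 pairs, 0.112, from 0.0482 to 0.185. The SD over the 45 pairs, 0.175, was above both medians, so it cannot serve as a limit for these shifts. The number of the 45 pairs at 0.3 or more, 2, was 1 with genes per cell taken out and 5 with Pearson's correlation on log2(FPKM + 1). It was 0 without cells under 2500 genes, 1 within cells of low Lgr5 and 8 without the 11 cells. The cause was not tested. Pairs among the 8 genes in use then made up 3.57%, 14.3%, 0%, 3.57% and 21.4% of 28, in the same order, against 4.84%, 9.49%, 5.92%, 8.25% and 9.02% of their pairings with all genes in use. The number thus ran from 0 to 8 of 45 pairs. At any value above 0, genes in at least 50% of cells rose from 0 to 1 for ligands and for receptors, from 3 to 5 for the destruction complex and from 3 to 6 for TCF/LEF factors, and the last fell to 1 at 5 FPKM. By number of cells, the comparisons within Lgr4 and Lgr5, Znrf3 and Rnf43, and Ephb2 and Ephb3 kept their direction. A gene seen in 0 of 39 cells could still be in up to 9.03% of cells (Clopper-Pearson, counting error only).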
